A study of Schizosaccharomyces pombe with 3 samples.

Results

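The meiotic genes mei4, mde3, spo5, rec8 and rec15 of the fission yeast Schizosaccharomyces pombe were examined for acetylation of histone H3 at lysine 9 (H3K9ac) in growing cells. They were chosen by name, as genes that are silent during vegetative growth, and all of their probes on chromosome II inside the gene or within 500 bp of it were used. This gave 280 of the 43993 probes of each array, of which 279 were kept, and 5 of the 893 protein-coding genes with at least 3 probes. The strains were alp13∆, which lacks alp13, asf1-1, which carries a mutant allele of asf1, and wild-type, with 1 array each. The labels name no other marker in any strain. All cells were in logarithmic growth in YEA rich medium at 30 °C and were fixed with 3% paraformaldehyde at 18 °C, and sheared fragments measured 500 to 1000 bp. On each array Cy5 carried the DNA recovered with the H3K9ac antibody and Cy3 the whole-cell extract of the same strain. Values below are log2 ratios of Cy5 to Cy3 per 60-base probe, with the median of each array set to 0.

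Fission yeast enters meiosis when starved of nitrogen, and its meiotic genes are then switched on in waves. Mei4 is a forkhead transcription factor that drives the middle wave, to which spo5, coding for an RNA-binding protein needed for the second division and spore formation, and mde3, coding for a protein kinase, belong. Rec8 is the kleisin of the meiotic cohesin complex, and Rec15 is needed to form the DNA breaks that start recombination. In growing cells, stray transcripts of several such genes are bound by the YTH-domain protein Mmi1 at repeated UNAAAC motifs and destroyed by the nuclear exosome. H3K9ac marks active chromatin and is removed by histone deacetylases. Alp13 is a chromodomain protein of one form of the Clr6 deacetylase, which acts over transcribed regions, and Asf1 is a chaperone that hands histones H3 and H4 to nucleosome assembly.

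All of these genes lie on the plus strand of chromosome II in the RefSeq annotation of ASM294v3, which also gave the sequences printed here. The gene mei4 (SPBC32H8.11) spans 1473068 to 1475285, has no intron, and carries a 5′ UTR of 126 bp and a 3′ UTR of 538 bp. Its first 115 bp overlap the end of cdk9, the gene of a transcription-elongation kinase. The gene mde3 (SPBC8D2.19) spans 1393454 to 1395312 with 2 introns and no annotated UTR. It lies wholly inside the transcript of sec31 on the opposite strand, beyond the sec31 coding sequence. The gene spo5 (SPBC29A10.02) spans 2536150 to 2538254 with 2 introns, and its last 127 bp overlap the convergent gene pcf1. The gene rec8 (SPBC29A10.14) spans 2568938 to 2570993 with 4 introns, overlaps no protein-coding gene and has no annotated 5′ UTR. The gene rec15 (SPBC1711.14) spans 2161487 to 2162200 with 1 intron and lies wholly inside SPBC1711.15C, a gene of unknown function on the opposite strand. Probes do not tell strands of chromatin apart, so a value of mde3 or rec15 is equally a value of the gene around it.

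Sequences tied to the meiotic program are shown first, beginning with the Mmi1 motif in the transcripts. The DNA form of the Mmi1 motif, TNAAAC on the sense strand of the spliced transcript, occurred 15 times in rec8 (8.03 per kb), 14 times in spo5 (6.99 per kb), 4 times in rec15 (6.02 per kb) and 11 times in mei4 (4.96 per kb). Over the 893 genes its median density was 1.66 per kb and these members lay at percentiles 99.6, 99.5, 98.9 and 98.0. The gene mde3 had 3 copies (1.79 per kb), close to the middle of all genes. In mei4 the antisense strand was nearly as rich, with 10 copies. The densest coding stretch of 90 bases held 2 copies in mde3 and 1 in rec15, and these are not printed. Those of the other members, plus strand, with the motif in capitals, were chrII:1473899-1473988 in mei4, chrII:2570247-2570336 in rec8 and chrII:2537502-2537591 in spo5.
mei4: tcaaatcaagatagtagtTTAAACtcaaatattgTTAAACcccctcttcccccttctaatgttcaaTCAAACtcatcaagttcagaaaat
rec8: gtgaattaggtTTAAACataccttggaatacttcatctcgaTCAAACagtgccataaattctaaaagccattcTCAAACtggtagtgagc
spo5: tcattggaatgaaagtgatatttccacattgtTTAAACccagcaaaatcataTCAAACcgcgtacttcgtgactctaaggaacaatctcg

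Upstream sequences are shown because Mei4 binds the forkhead motif and because rec8 belongs to the premeiotic S-phase genes, which carry the MCB motif ACGCGT. The forkhead cores GTAAACA and GTAAATA were sought on both strands in the 500 bp before each gene start. GTAAACA occurred upstream of mei4, spo5 and mde3 and of 25.2% of the 893 genes. GTAAATA occurred upstream of mei4 and of 26.7% of genes, and either core upstream of 44.9%. ACGCGT, which reads the same on both strands, occurred 49 and 20 bp before the start of rec8, and upstream of 3.92% of genes. None of these motifs was found in the window of rec15. The windows of 30 bases, plus strand, with the motif in capitals, are chrII:1472974-1473003 for mei4, where both cores stand on the minus strand and read as their complements, chrII:2535775-2535804 for spo5, chrII:1393367-1393396 for mde3 and chrII:2568877-2568906 for the first site of rec8.
mei4: ttgcttgTGTTTACaTATTTACggtatttt
spo5: tgggtaacaaaGTAAACActggcagtcgac
mde3: tatgttggaatGTAAACAaacataaacaaa
rec8: aatataattttgACGCGTttaataagctat

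The arrays had median Cy3 intensities between 1619 and 1811 and median Cy5 intensities between 1809 and 2102. Across probes the alp13∆ array correlated with the wild-type array at r = 0.476, the asf1-1 array with the wild-type array at 0.894, and the asf1-1 array with the alp13∆ array at 0.712. Each strain had 1 array, so no difference has a replicate check, and array and strain cannot be told apart. An SD beside a gene's value is taken across its probes, which are neighbours on 1 hybridisation. Within an array, near-duplicate probes gave an SD of 0.13 for 1 probe's alp13∆ change and 0.08 for 1 probe's asf1-1 change. Which array holds which strain rests on the labels, since alp13 and asf1 have no probes and the authors' deposited value table did not follow the arrays its columns are named for. Total H3 was not measured, and H3K9ac per nucleosome cannot be told apart from nucleosome density.

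The first question was how much H3K9ac these genes, chosen as silent but without a measurement of RNA, carry on each array. They were not uniformly poor in the mark: in wild-type cells rec15, spo5 and rec8 lay at the middle of all genes, mei4 lay lower, and mde3 near the bottom. The mean log2 ratio of rec15 was -0.90 ± 0.16 in alp13∆, -0.39 ± 0.12 in asf1-1 and 0.23 ± 0.19 in wild-type (SD across 15 probes). That of spo5 was 0.96 ± 0.40 in alp13∆, 0.30 ± 0.16 in asf1-1 and 0.09 ± 0.29 in wild-type (42 probes). That of rec8 was 0.25 ± 0.45 in alp13∆, 0.10 ± 0.24 in asf1-1 and 0.06 ± 0.25 in wild-type (42 probes). In wild-type these 3 genes differed by less than the SD across their probes, and they held percentiles 59.0, 51.2 and 48.4 among all genes. The mean of mei4 was 0.14 ± 0.44 in alp13∆, -0.60 ± 0.17 in asf1-1 and -0.35 ± 0.34 in wild-type (43 probes). The mean of mde3 was 0.24 ± 0.28 in alp13∆, -0.86 ± 0.09 in asf1-1 and -1.02 ± 0.23 in wild-type (37 probes). On the wild-type array mei4 held percentile 24.1 and mde3 percentile 3.64. The placing of rec15 depends on the extract channel, since on Cy5 alone its wild-type level was -0.64, close to mde3 at -0.71.

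The median of all genes was 0.12 in alp13∆, 0.10 in asf1-1 and 0.08 in wild-type, values that depend on setting each array's median to 0. Below it lay 1 of the 5 meiotic genes in alp13∆ (rec15), 4 in asf1-1 (all but spo5) and 3 in wild-type (all but rec15 and spo5). In alp13∆ the order changed: spo5 had the highest level of the 5, at percentile 98.0 of all genes, and rec15 the lowest, at percentile 9.13. In asf1-1 the order ran from spo5 down through rec8, rec15 and mei4 to mde3, which held percentile 6.10.

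**Figure D1:**
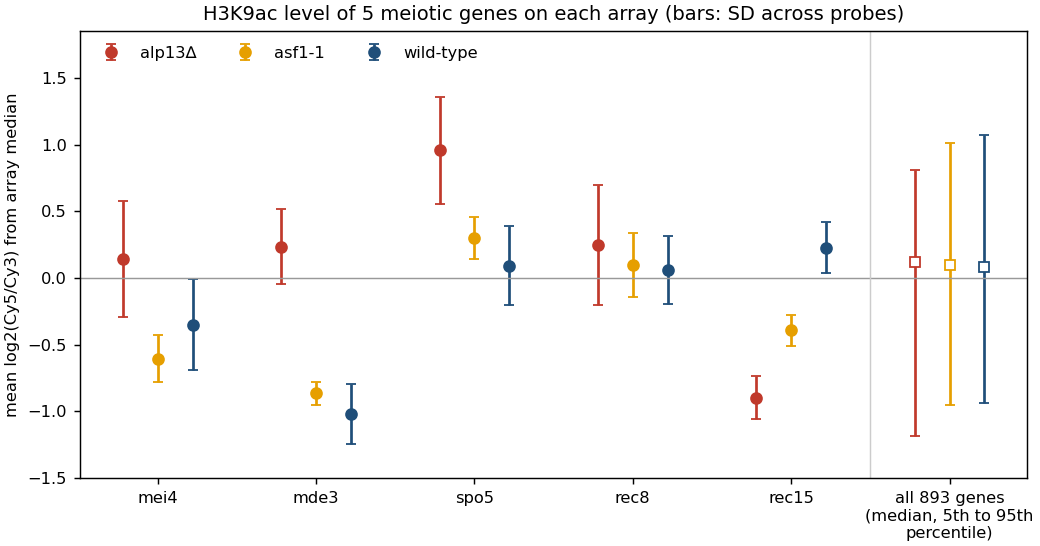
Mean log2 ratio of Cy5 (H3K9ac) to Cy3 (whole-cell extract) of each meiotic gene on the alp13∆, asf1-1 and wild-type arrays. Bars are the SD across the gene's probes, and open squares give the median of all 893 genes with bars over the 5th to 95th percentile. The gene mde3 stands at 0.24 in alp13∆ and -1.02 in wild-type, and rec15 runs the other way, at -0.90 in alp13∆ and 0.23 in wild-type.

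On the wild-type array the ratio was higher before the gene start than in the middle of the gene for most genes, and most of the meiotic genes were low before the start. The mean of the 500 bp upstream was -0.43 in alp13∆, -0.54 in asf1-1 and -0.27 in wild-type for mei4. For mde3 it was -0.95, -0.56 and -0.17 on the same arrays, for spo5 -0.42, -0.15 and -0.03, and for rec15 -0.91, -0.29 and -0.13. On the wild-type array these 4 lay below the all-gene upstream median of 0.55, and rec8 lay above it at 0.82, with -0.38 in alp13∆ and 0.50 in asf1-1. The rec8 upstream window lies between rec8 and atp7, a gene of the mitochondrial ATP synthase, whose body had a level of 0.83 in wild-type. The mei4 window lies wholly inside cdk9. That of mde3 takes in parts of sec31 and of SPBC8D2.18C, its neighbour on the left, and that of rec15 part of SPBC1711.15C. The upstream values of mei4, mde3 and rec15 are thus also values of other genes.

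Each gene was cut into 3 parts of equal length, and the middle part minus the 500 bp upstream measures this shape and does not depend on where the array is centred. For mei4 this difference was 0.94 in alp13∆, 0.02 in asf1-1 and -0.17 in wild-type. For mde3 it was 1.39, -0.29 and -0.89 on the same arrays, and for spo5 1.62, 0.52 and 0.18. For rec8 it was 0.76, -0.54 and -0.94, and for rec15 0.14, -0.09 and 0.42. The middle part exceeded the upstream window in 5 of the 5 genes in alp13∆, where 81.0% of 891 genes did so. It did so in 2 in asf1-1 (mei4 and spo5), where 41.3% of genes did, and in 2 in wild-type (spo5 and rec15), where 23.9% did. The shift toward the body in alp13∆ was thus shared with most genes. In asf1-1 the mei4 difference turned below 0 with normexp background correction (-0.28) and with a flank of 1000 bp (-0.20). It also did so with gene medians (-0.022) and with probes placed 250 bp to the right (-0.42). With normexp the rec15 difference in asf1-1 turned to 0.68, so the count stayed at 2. Of the 5, rec15 alone had a smaller difference in alp13∆ than in wild-type, an order that turned with a flank of 250 bp (0.38 in alp13∆, 0.13 in wild-type), with normexp background correction (0.50 and 0.40) and with probes placed 250 bp to the left (0.012 and -0.26). On Cy5 intensity without division by the extract, all 15 of these differences were above 0. Those that turned sign were mde3 (2.19), rec8 (0.72) and rec15 (1.65) in asf1-1, and mei4 (1.998), mde3 (1.83) and rec8 (0.32) in wild-type. The share of all genes above 0 on Cy5 alone was not computed, so these signs have no background. Around the members the extract signal followed GC content at the best offset (r between 0.45 and 0.63), the measure by which probes were placed. Undivided Cy5 is not corrected for differences between probes, and whether these bear on the signs was not tested.

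**Figure D2:**
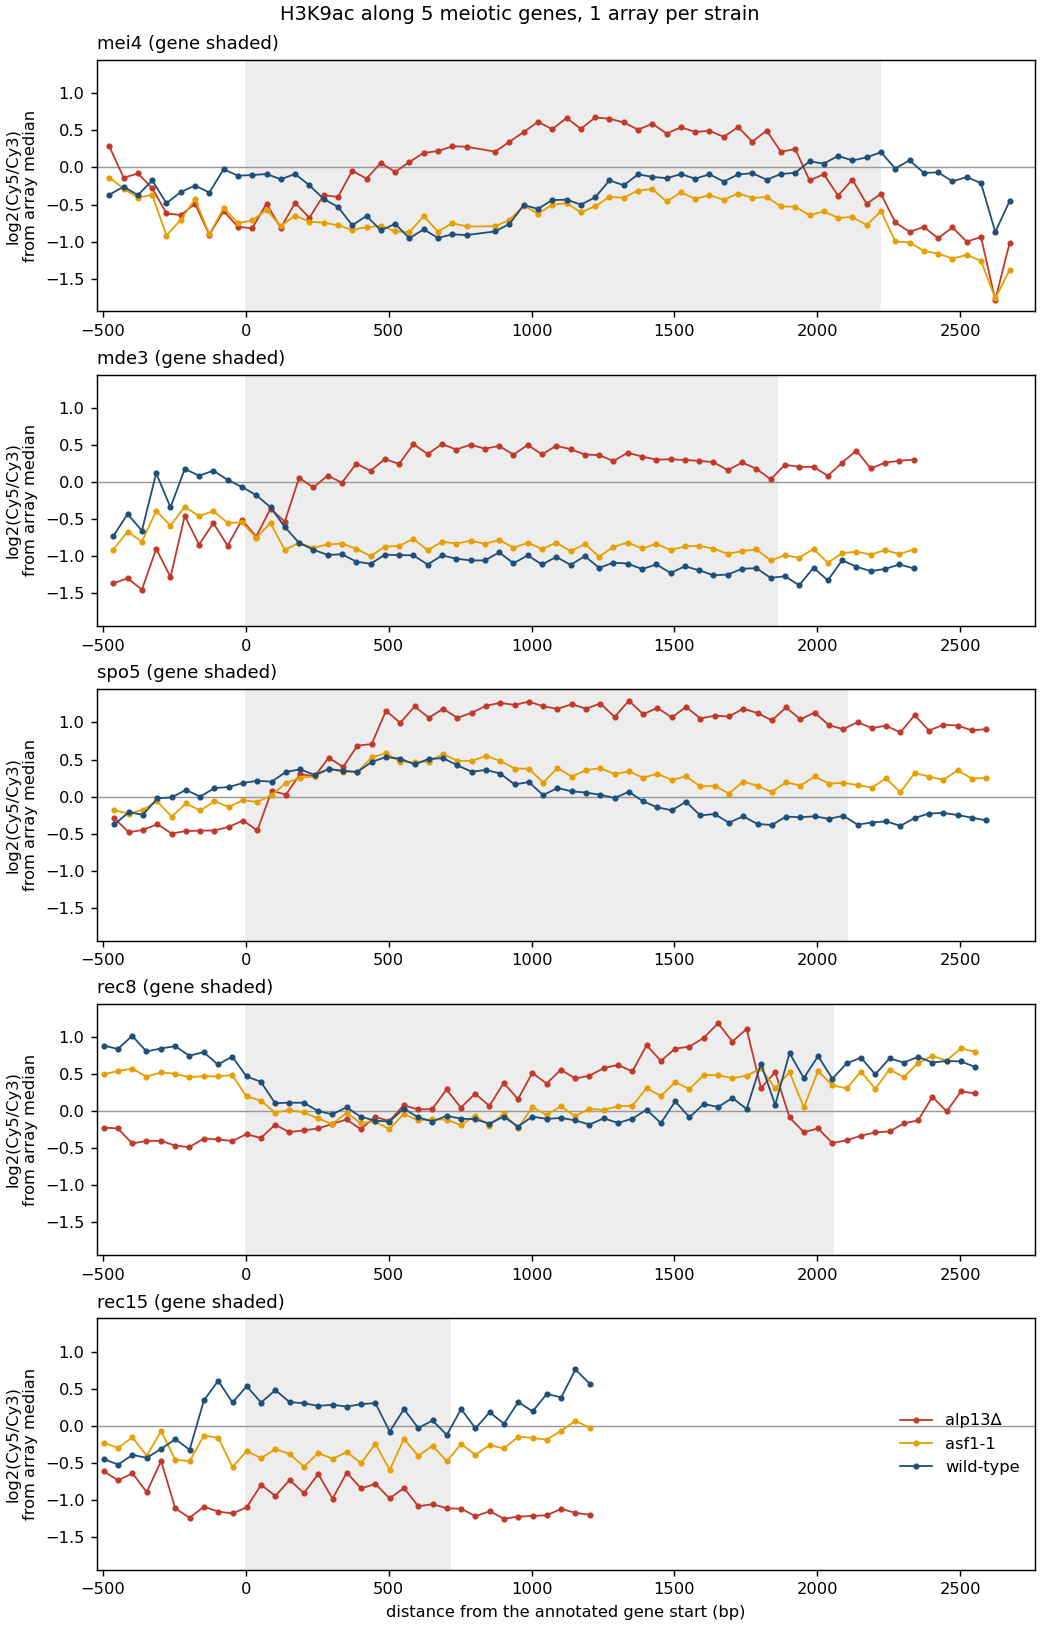
Log2 ratio of Cy5 to Cy3 of every kept probe against its distance in bp from the annotated gene start, with the gene shaded, on the alp13∆, asf1-1 and wild-type arrays. In the middle part of mei4, mde3 and spo5 the alp13∆ trace lies above that of wild-type, while along rec15 it lies below at every probe with arrays centred on their medians.

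How the loss of a Clr6 deacetylase subunit affects H3K9ac of these genes was read from alp13∆ against wild-type. H3K9ac rose over mde3 by 1.26 and over spo5 by 0.87 on the log2 scale, relative to the array medians. It fell over rec15 by 1.12, a direction that turned to 0.061 when arrays were centred on the probes between genes. The change was 0.49 for mei4 and 0.19 for rec8, neither past the 1.5-fold limit of 0.585. Of the 5 genes, 2 were thus higher and 1 was lower by 1.5-fold or more, against 15.3% higher and 21.8% lower among all 893 genes. The median change was 0.49 for the 5 and -0.07 for all genes. Among all genes, mde3 ranked 8 from the top, spo5 57, mei4 177, rec8 307 and rec15 847. With each array centred on the probes between genes, the change of all genes shifted to a median of 1.12, and the other 4 members read between 1.37 and 2.44.

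The rise over mde3 held across nearly the whole gene. In alp13∆ 34 of its 37 probes were higher by at least 1.5-fold and none was lower by as much. In bins of 250 bp, the mean was 0.46 in alp13∆, -0.82 in asf1-1 and -1.03 in wild-type between 750 and 1000 bp after the start, where the alp13∆ change was largest at 1.49. From 500 bp after the start to the end of the window, every bin had an alp13∆ change of at least 1.42. Before the start the change was opposite, at -0.85 between 500 and 250 bp upstream, where the means were -1.26 in alp13∆, -0.67 in asf1-1 and -0.41 in wild-type. A lower upstream value was common in alp13∆ with arrays centred on their medians. The median change of the 500 bp upstream was then -0.93 over 891 genes, against -0.79 for mde3. The sign of these upstream changes depends on the centring: with centring between genes the change of mde3 itself was 2.44 in place of 1.26.

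Because mde3 lies inside sec31, the gene of a COPII vesicle coat protein, the rest of sec31 was set beside it. The 88 sec31 probes outside mde3 averaged -0.29 ± 0.80 in alp13∆, -1.09 ± 0.42 in asf1-1 and -1.18 ± 0.42 in wild-type (SD across probes). Their alp13∆ change was 0.89, so H3K9ac was also higher on average over the remainder of the surrounding gene. A profile along sec31 was not computed. The 500 bp past the end of mde3 had 0.24 in alp13∆, -0.97 in asf1-1 and -1.20 in wild-type, close to the levels of mde3 itself.

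The rise over spo5 grew toward its 3′ end. Between 250 bp upstream and the start the means were -0.42 in alp13∆, -0.11 in asf1-1 and 0.10 in wild-type, a change of -0.53 in alp13∆. Between 1750 and 2000 bp they were 1.11 in alp13∆, 0.16 in asf1-1 and -0.31 in wild-type, a change of 1.42. The 500 bp upstream of spo5 changed by -0.39 in alp13∆, against a median of -0.93 over 891 genes. In alp13∆ the body formed a plateau above 1.10 between 500 and 2000 bp, while in wild-type the ratio peaked at 0.48 between 500 and 750 bp and declined to -0.32 by the end of the gene. The 3′ UTR had 1.05 in alp13∆, 0.20 in asf1-1 and -0.27 in wild-type (5 probes). Of 42 probes, 31 were higher by at least 1.5-fold in alp13∆ and 1 was lower. The Cy3 medians of this gene's probes differed between arrays, with 1730 in alp13∆, 2397 in asf1-1 and 2635 in wild-type. On Cy5 alone the spo5 change was 0.50, below the 1.5-fold limit, and that of mde3 was 1.04.

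In mei4 a rise in the centre of the gene was flanked by lower ends. Between 750 and 1000 bp the means were 0.33 in alp13∆, -0.70 in asf1-1 and -0.76 in wild-type, a change of 1.09 in alp13∆. Between 2250 and 2500 bp they were -0.83 in alp13∆, -1.10 in asf1-1 and -0.05 in wild-type, a change of -0.79 in alp13∆. That bin lies past the gene end and reaches into act1, the actin gene on the right. Of the 43 mei4 probes, 27 were higher and 3 were lower by 1.5-fold or more. With arrays centred on their medians, the gene mean of 0.49 thus averages regions of opposite sign. With centring between genes that mean was 1.68. Without the 2 probes shared with cdk9 the mei4 change was 0.54.

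With arrays centred on their medians, which sets the signs here, the rec8 profile in alp13∆ crossed that of wild-type. The gene mean does not show this. With centring between genes, which adds 1 constant to every change, the rec8 change was 1.37 in place of 0.19. The median alp13∆ change of all genes also turned sign, from -0.93 upstream to 0.18 in the middle part. For rec8 these changes were -1.20 and 0.50. Between 500 and 250 bp upstream the means were -0.34 in alp13∆, 0.52 in asf1-1 and 0.88 in wild-type, a change of -1.22 in alp13∆. Between 1500 and 1750 bp they were 0.97 in alp13∆, 0.42 in asf1-1 and 0.08 in wild-type, a change of 0.89. Past that peak the alp13∆ ratio dropped around the end of the coding sequence and in the 183 bp 3′ UTR, to -0.33 between 2000 and 2250 bp, against 0.41 in asf1-1 and 0.61 in wild-type. Of 42 probes inside the gene, 14 were higher and 6 were lower by 1.5-fold or more in alp13∆.

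With arrays centred on their medians, the loss over rec15 covered the whole gene. All 15 of its probes were then lower in alp13∆ by at least 1.5-fold, with changes between -1.63 and -0.89. With centring between genes the rec15 change was 0.061, and 0.336% of all genes were lower by 1.5-fold. The bin from 1000 to 1250 bp, past the gene end, had -1.18 in alp13∆, -0.08 in asf1-1 and 0.47 in wild-type, a change of -1.65 in alp13∆. With all genes split by length into 4 classes of nearly equal size, rec15, at 714 bp, falls in the shortest, 129 to 1201 bp. With arrays centred on their medians, 61.2% of the 224 genes in that class were lower by 1.5-fold in alp13∆ and 0.0% were higher. Their median change was -0.69. The other 4 members fall in the class from 1717 to 2438 bp, where 14.0% of 222 genes were higher, 5.41% were lower and the median change was 0.06. The changes of these 4 ran between 0.19 and 1.26, and 2 of them were higher by 1.5-fold. The class of mde3 is that of its own length, though all its probes also lie in sec31, of 6293 bp. By the length of sec31 it would fall in the longest class, 2455 to 11069 bp, where the median change was 0.50.

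**Figure D3:**
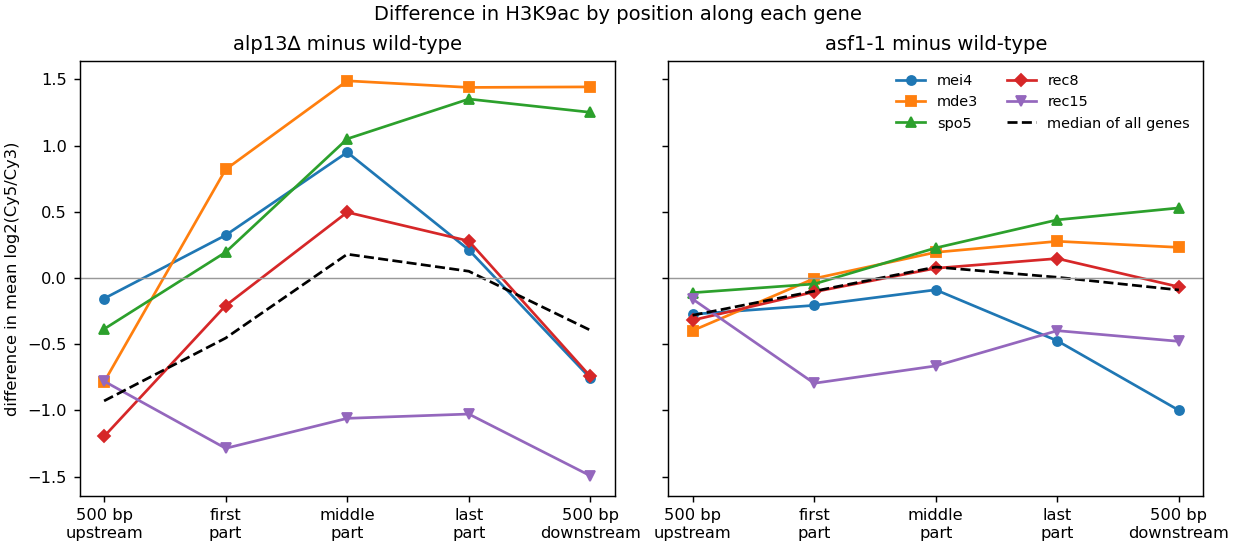
Difference in mean log2 ratio from wild-type in 5 segments of each gene, for alp13∆ (left) and asf1-1 (right), with the median of all genes dashed. With arrays centred on their medians, which sets the sign, every meiotic gene is below 0 upstream in both panels. The median of all genes is also below 0 there, at -0.93 in alp13∆ and -0.28 in asf1-1. Only 1 of the 5 members lies below that median in alp13∆ and 2 do in asf1-1. In the middle part of the alp13∆ panel mde3 is at 1.49, spo5 at 1.05, mei4 at 0.95, rec8 at 0.50 and rec15 at -1.06.

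What a mutant histone chaperone does to the same genes was read from asf1-1 against wild-type, which shares its wild-type array with the preceding comparison. H3K9ac fell over rec15 by 0.62, and no other member passed 1.5-fold: the change was -0.26 for mei4 (0.14 with centring between genes), 0.04 for rec8 (-0.04 on Cy5 alone), 0.21 for spo5 and 0.16 for mde3. Of the 5, 0 were higher and 1 was lower by 1.5-fold or more, against 1.68% higher and 2.13% lower among all genes. The median change was 0.04 for the 5 and 0.00 for all genes. The call on rec15 lay close to the limit and was lost in 5 alternatives that left it measured: -0.42 on Cy5 alone, -0.22 with centring between genes, -0.45 without centring, -0.33 with normexp background correction and -0.49 with probes placed 250 bp to the left. With centring between genes spo5 had 0.61, past the limit, and the median of all genes was 0.40.

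Probe and bin changes in this paragraph are with arrays centred on their medians. All 15 rec15 probes were lower in asf1-1, 9 of them by at least 1.5-fold. The largest loss lay in the first 250 bp, with means of -0.90 in alp13∆, -0.40 in asf1-1 and 0.39 in wild-type, a change of -0.80 in asf1-1. Along mei4 the asf1-1 and wild-type traces lay close between 500 and 1250 bp and parted toward both ends of the gene. The asf1-1 change was -0.56 in the first 250 bp of mei4 and 0.06 between 750 and 1000 bp. Between 2250 and 2500 bp after the start, past the gene end and reaching into act1, it was -1.06, the lowest of any mei4 bin. Along spo5 the asf1-1 change was 0.02 between 250 and 500 bp and 0.48 between 1750 and 2000 bp. Between 2250 and 2500 bp, past the gene end and inside pcf1, it was 0.52. Of the spo5 probes inside the gene 34 of 42, and of the mde3 probes 34 of 37, were higher in asf1-1 than in wild-type, none by 1.5-fold.

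**Figure D4:**
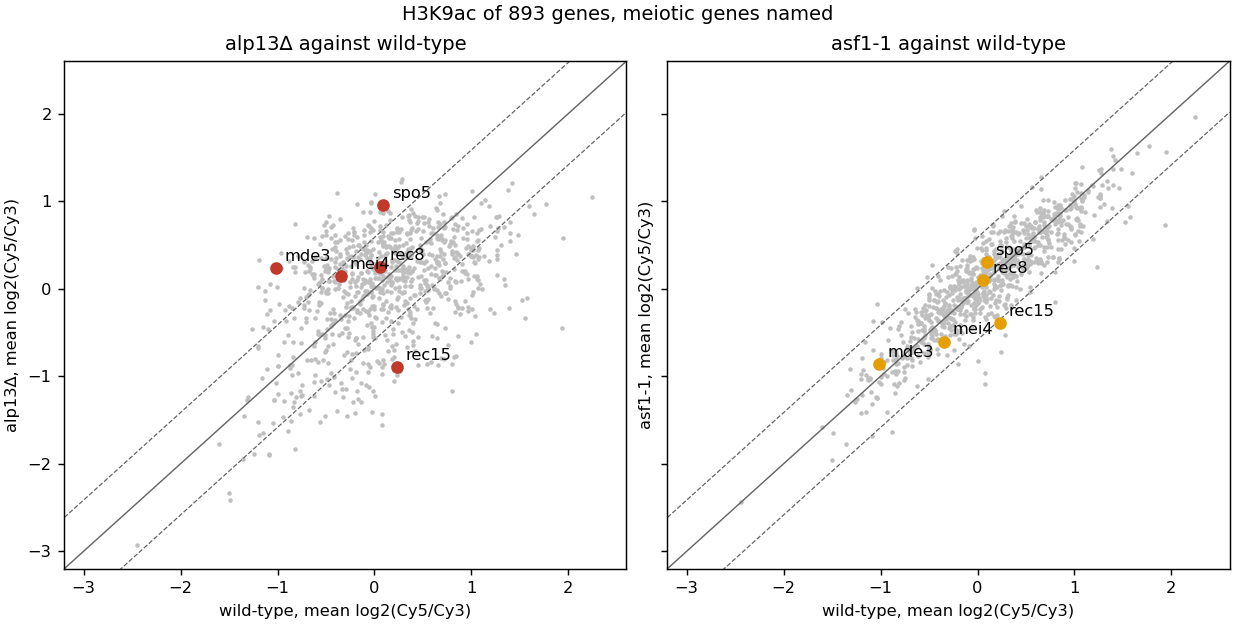
Mean log2 ratio of each of 893 genes (grey) in alp13∆ (left) and asf1-1 (right), on the vertical axes, against wild-type on the horizontal axes, with the meiotic genes in colour. The solid line marks equal values and the dashed lines a 1.5-fold difference: mde3 and spo5 lie above the upper line in alp13∆, and rec15 lies below the lower line in both panels, with arrays centred on their medians but not on the probes between genes.

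Set directly against alp13∆, asf1-1 had less H3K9ac over mde3 by 1.10 (difference -1.10), over mei4 by 0.75 (-0.75) and over spo5 by 0.66 (-0.66). The difference was -0.15 for rec8 and 0.51 for rec15, the second turning to -0.28 with centring between genes, where the median of all genes was -0.70. Of the 5 genes, 0 were higher and 3 lower in asf1-1 by at least 1.5-fold, against 16.2% higher and 8.73% lower among all genes. The median difference was -0.66 for the 5 and 0.08 for all genes. The gene mei4 passed the limit here and in neither comparison with wild-type, since its levels were 0.14 in alp13∆ and -0.60 in asf1-1 with wild-type between them at -0.35. Of its 43 probes, 31 were lower in asf1-1 by at least 1.5-fold. For rec15 the difference passed the limit, at 0.59 and 0.65, with all arrays brought to 1 spread and with probes placed 250 bp to the left. For spo5 it was -0.34 on Cy5 alone and -0.52 with probes placed 250 bp to the right, both short of the limit.

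Genes next to the members were read in the same way. Of 8 member and neighbour pairs that do not share most of their bases, the meiotic gene had the higher mean ratio in 7 in alp13∆, 3 in asf1-1 and 4 in wild-type. The same count was not made over all genes, so these have no background. The pairs are not independent, since mei4, rec8 and spo5 each enter with both neighbours, and the value of mde3 is also one of sec31. Downstream of mei4, the actin gene act1 had -1.53 in alp13∆, -1.42 in asf1-1 and -1.20 in wild-type, each lower than mei4 on the same array. RNA was not measured for either gene. The adenosylhomocysteinase gene SPBC8D2.18C beside mde3 had -1.24, -1.16 and -1.31 on the same arrays, an alp13∆ change of 0.06. Beside spo5, pcf1, which codes for the large subunit of the CAF-1 histone chaperone, had 0.72 in alp13∆, 0.36 in asf1-1 and 0.11 in wild-type, an alp13∆ change of 0.61. In contrast atp7, upstream of rec8, had -0.14 in alp13∆, 0.55 in asf1-1 and 0.83 in wild-type. Relative to the array medians, atp7 fell in alp13∆ by 0.97. The other neighbours of the members, cdk9, ccr1, orc1 and pwp1, had alp13∆ changes between -0.15 and 0.33 and asf1-1 changes between 0.03 and 0.23.

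Of 99 other genes of meiosis and sporulation listed by name, 97 were annotated and 13 measured. In alp13∆, 2 of the 13 were higher and 1 lower by 1.5-fold, against 15.3% higher and 21.8% lower of all genes, and their median change was 0.15. The highest was pat1, whose kinase holds back meiosis in growing cells, with 0.63 in alp13∆, -0.47 in asf1-1 and -0.28 in wild-type, an alp13∆ change of 0.91. It was followed by meu17, a glucosidase gene, with 0.78 in alp13∆, 0.25 in asf1-1 and 0.16 in wild-type, a change of 0.62. The lowest was sfr1, coding for a recombination mediator, with 0.64 in alp13∆, 1.51 in asf1-1 and 1.40 in wild-type, a change of -0.76. The recombination gene rec6 had an alp13∆ change of 0.45, and meu25 had -0.33. In asf1-1 none of the 13 passed 1.5-fold in either direction, and their median change was 0.06.

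Of 18 listed factors of the nuclear elimination of meiotic transcripts, 16 were annotated and 3 measured. The gene pir2, the fission yeast counterpart of ARS2, had 0.15 in alp13∆, -0.27 in asf1-1 and -0.64 in wild-type, and rose in alp13∆ by 0.79. The poly(A)-binding protein gene pab2 had an alp13∆ change of -0.34 and an asf1-1 change of 0.20. The zinc finger gene red5 had an alp13∆ change of -0.38 and an asf1-1 change of -0.30. Mmi1 itself was not measured here.

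The pattern of each member over 15 values, 5 segments on each of the 3 arrays, was compared with that of 891 genes by the root mean square difference. Nearest to mei4 was meu18, a gene induced in meiosis, at 0.27, followed by cdc18 at 0.34 and edc3 at 0.36, against a median of 0.84 over all genes. The level of meu18 was 0.01 in alp13∆, -0.63 in asf1-1 and -0.37 in wild-type. Nearest to mde3 were rpc1 at 0.23, rkr1 at 0.25 and mug93 at 0.29, with a median of 1.01. Nearest to spo5 were its overlapping neighbour pcf1 at 0.22, which shares bases with it, then nak1 at 0.29 and prp1 at 0.32, with a median of 0.78. Nearest to rec8 were rmt3 at 0.22, ctu2 at 0.23 and the recombination gene swi5 at 0.23, with a median of 0.64. Nearest to rec15 were the ribosomal protein genes rps21 at 0.19 and rps1402 at 0.28, then SPBC1711.15C at 0.29, which shares its bases, with a median of 0.85. Among the 5 themselves, mei4 and mde3 were the closest pair at 0.57 and spo5 and rec15 the farthest at 1.08, so no pair was as close as the nearest gene of each.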

How the data were processed

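H3K9ac ChIP-chip was read from 3 two-colour Agilent tiling arrays of 1 slide. Per the file headers, Agilent Feature Extraction 10.7.3.1 produced the deposited intensities, subtracting background and normalising each dye by a linear factor. Its log ratio is deposited on the log10 scale, Cy5 over Cy3, and served only to examine the value table. Both DNAs were amplified by random-primed PCR, per the labels. The authors' deposited value table, taken as a score of unknown scale, centring and direction, had column medians of -0.0204 (asf1-1), 0.0849 (alp13∆) and 0.114 (wild-type), correlated with its own arrays at r = -0.58, 0.528 and 0.226, and entered no comparison.

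From the deposited intensities, log2(Cy5/Cy3) was computed per probe and centred on the array median, leaving out control spots and 81 probes with outlier flags. Before centring the medians were 0.41 (alp13∆), 0.17 (asf1-1) and 0.00 (wild-type). No source used here names the build of the probe positions. Probes were placed on ASM294v3 by an offset of 900 bp on the left part of chromosome II (mei4, mde3) and 1800 bp further right (spo5, rec8, rec15), chosen as the best correlation of GC content with Cy3; in 20000-bp windows around each member, the best offset lay within 10 bp of it. A gene's value is the mean over probes whose middle lies inside it (at least 3). A difference of 1.5-fold is called, without a test. The limit for a value having moved under another setting was the SD across probes.

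Members, the 5 genes, and lists were chosen with earlier results of these data known. Named genes are the members, their nearest measured neighbours, the highest and lowest of the lists, and the 3 nearest patterns. Alternatives were no centring, centring on probes between genes, equal spread, normexp, Cy5 alone, gene medians, leaving out probes of overlapping genes or dim or saturated probes, shifted placement, and other flank widths. Normexp (limma 3.58.1, R 4.3.3, offset 50) ran on median signals, since the files hold no mean signals. Python 3.11.15, numpy 2.4.6 and pandas 2.3.3 were used, and the calls were tested on simulated data.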

Additional observations from a re-analysis of the deposited data

How the results depend on the processing

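Of 144 recomputed changes of members, 140 kept their direction and 124 also their side of the 1.5-fold limit. The centring mattered most: centring on probes between genes moved the median change of all genes to 1.12 in alp13∆ and 0.40 in asf1-1, and no centring moved them to 0.34 and 0.17, because each adds 1 constant per array. All genes then split in alp13∆ into 705 higher and 3 lower, or 310 higher and 72 lower without centring, in place of 137 and 195. In asf1-1 the splits were 208 and 3, or 50 and 10, in place of 15 and 19. Against alp13∆, asf1-1 had 0 higher and 539 lower, or 59 and 171, in place of 145 and 78. On Cy5 alone 68 genes were higher and 119 lower in alp13∆, and 3 and 10 in asf1-1; normexp gave 53 and 37 in asf1-1, and gene medians 31 and 18.

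In alp13∆, 4 members were higher with centring between genes or none and 1 on Cy5 alone (mde3), while 0 were lower with centring between genes, where rec15 read 0.061. In asf1-1 against wild-type, 0 were lower on Cy5 alone, with either other centring, with normexp or with probes placed 250 bp left, and 1 was higher with centring between genes. Against alp13∆, 1 member (rec15) was higher in asf1-1 with equal spread or placement 250 bp left. The count below the all-gene median in alp13∆ was 2 with normexp or placement 250 bp right. Members with the middle part above the upstream window numbered 5 in asf1-1 and 5 in wild-type on Cy5 alone, where mde3 read 1.83 and rec8 0.32 in wild-type and no share of all genes was computed. They numbered 1 in asf1-1 with a flank of 1000 bp, gene medians or placement 250 bp right, and 0 in wild-type with placement 250 bp left.

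Without probes of overlapping genes mde3 and rec15 had no value, since all their probes are shared. Of the 3 left, 0 in alp13∆ and 2 in asf1-1 lay below the all-gene median, 1 was higher and 0 lower in alp13∆, 0 were lower in asf1-1, and the middle part was above the upstream window in 3 in alp13∆ and 1 in wild-type. Other causes were not tested. Leaving out dim or saturated probes changed no level or change of a member, and moved the middle minus upstream difference of rec15 to 0.12 in alp13∆, -0.07 in asf1-1 and 0.47 in wild-type. No paired analysis was possible because each strain had 1 array, and the number of arrays limits the precision.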
